A study of Homo sapiens with 16 samples.

Results

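The human mitochondrial chromosome encodes 37 genes, and all 37 were found among the 60107 genes counted in each library. Genes were taken as members when GENCODE release 44 places them on chrM of GRCh38, a circular chromosome of 16569 bases, and were matched by Ensembl gene ID. They comprise 13 mRNAs, 2 rRNAs and 22 tRNAs. The cells were U2OS-TR, derived from human bone tumour (osteosarcoma) cells and making the tetracycline repressor, and U2OS-TR/ΔN-RNMT, a single clonal derivative with a stably integrated transgene. The transgene expresses ΔN-RNMT, an inactive form of the cap methyltransferase RNMT held in the cytoplasm, from a promoter under tetracycline operator control. The libraries were QuantSeq REV 3′ mRNA-Seq libraries, which are primed on poly(A) and yield one sequence tag next to the tail of each RNA molecule.

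Groups were compared within their own line. Control denotes uninduced transgene cells (n = 5) and Induced denotes transgene cells given doxycycline (n = 5). No Dox denotes untreated parental cells (n = 3) and With Dox denotes doxycycline-treated parental cells (n = 3), the check on effects of doxycycline itself. Cells were split into 10 cm dishes, doxycycline at 1 µg/ml was added 48 h later, and cells were collected after a further 24 h. The sample labels record 1 µg/ml for all 16 libraries, whereas the description of the study gives doxycycline to the Induced and With Dox cells alone, and those treatments were used here. All cells carried the tetracycline repressor. Cells were opened with 0.2% NP-40 and nuclei were removed at 12000 × g, and the supernatant was called cytoplasmic RNA. The study describes no step meant to separate mitochondria from the cytosol. How many mitochondria were removed with the nuclei, and how much mitochondrial RNA this supernatant keeps, was not measured. The transgene libraries held 12527183 to 23251834 gene counts and the parental libraries 1473286 to 3214808. The lines were also sequenced on different instruments with reads of 75 and 150 bases, so line and sequencing cannot be told apart.

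Mitochondrial DNA is transcribed from both strands as long precursors that span many genes. tRNAs lie between most of the mRNAs and rRNAs, and their excision releases the mature RNAs. Most of the mRNAs then receive a poly(A) tail from the mitochondrial poly(A) polymerase MTPAP, which in several cases completes the stop codon. They are translated inside the organelle into core subunits of respiratory complexes I, III and IV and of ATP synthase, also called complex V. Mitochondrial mRNAs carry no 7-methylguanosine cap, and their transcription, processing and decay depend on proteins encoded in the nucleus.

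Poly(A)-primed tags come from the 3′ ends of RNAs, so the last 30 annotated bases of the 8 mRNAs that fell in induced cells and of MT-ATP8 are shown, 5′ to 3′, with the stop codon or its encoded part in capitals. Bases are from the GRCh38 reference, forward strand.
MT-ND1, chrM:4233-4262: tacaatctccagcattccccctcaaaccTA
MT-CO1, chrM:7416-7445: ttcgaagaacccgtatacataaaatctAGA
MT-CO2, chrM:8240-8269: tttgaaatagggcccgtatttaccctaTAG
MT-ATP8, chrM:8543-8572: tcgcttcattcattgcccccacaatccTAG
MT-ATP6, chrM:9178-9207: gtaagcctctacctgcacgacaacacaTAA
MT-CO3, chrM:9961-9990: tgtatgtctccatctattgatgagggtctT
MT-ND4, chrM:12108-12137: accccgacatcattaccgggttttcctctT
MT-ND5, chrM:14119-14148: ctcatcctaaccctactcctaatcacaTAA
MT-CYB, chrM:15858-15887: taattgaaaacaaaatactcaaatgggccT
Of the 13 mRNA genes, 7 end, as annotated, in a complete stop codon and 6 in a part of one that the tail has to complete. The last base of the annotated stop codon of MT-ATP6 is the 1 base that it shares with MT-CO3. Whether that base stays on the MT-ATP6 mRNA was not tested. In MT-ND1 the encoded part is TA, and in MT-CO3, MT-ND4 and MT-CYB it is a single T. The end of MT-ATP8 lies within MT-ATP6, with which it shares 46 bases and a single mRNA, and MT-ND4L likewise shares 7 bases and an mRNA with MT-ND4. For these pairs the tail follows the downstream gene and not the printed end of MT-ATP8. The mature mRNAs of MT-CO1, MT-CO2 and MT-ND5 run past their annotated ends, so for these the printed bases are not the end of the mRNA. A tag that lies wholly beyond the annotated gene is not counted on it. What the counts on MT-CO1, MT-CO2 and MT-ND5 stand for was therefore not settled here and was not tested.

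The nuclear genome holds many old copies of mitochondrial DNA, and a tag that aligned equally well to both genomes was left out of the counts. The last 75 bases of each gene, or the whole gene where it is shorter, were compared with the nuclear chromosomes of GRCh38. An identical nuclear copy was found for 9 of the 37 genes. These were MT-ND1 and MT-CO1 among the mRNAs and 7 tRNAs, including MT-TS1, MT-TN, MT-TK and MT-TW. Counting these, 23 of the 37 genes and 6 of the 13 mRNAs had a nuclear match that differed by at most 2 bases. Among them were MT-ATP6 (98.7% identical) and MT-ND5 (97.3%). At the low end, the best nuclear match was 82.7% identical for MT-RNR2, 84.0% for MT-CYB and 85.3% for MT-CO3. Annotated nuclear copies held between 0.0769 and 0.186 counts per 100 counts on the mitochondrial genes. Tags aligned to more than 1 place numbered 0.56 to 1.33 per gene count with the transgene cells and 0.773 to 1.44 with the parental cells. Levels of genes with an identical copy are therefore uncertain. How far copies that differ by 1 or 2 bases affected the counts was not tested. Whether counting used strand is not given in the sources used here, so a gene and its neighbour on the other strand cannot be told apart where their RNAs overlap.

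Tags were found on all 13 mRNAs and both rRNAs in each of the 16 libraries. The 2 genes taken as markers of the group, MT-CO1 and MT-ND1, held 266 to 5577 and 474 to 4929 counts. Of the 22 tRNAs, 9 held a count in every library and MT-TN and MT-TK held 0 in all of them. A count of 0 allows up to 3 counts, or 0.129 to 2.04 CPM (counts scaled to a common library size), depending on the library. Mature mitochondrial tRNAs carry no poly(A) tail, and what the counts on tRNA genes stand for was not tested. Per kilobase of annotated gene, the order of scaled CPM in Control libraries was MT-CO3 (3353 ± 838, SD, n = 5), MT-ND3 (3016 ± 796), MT-ATP6 (2463 ± 749) and MT-RNR2 (2233 ± 369.9). These neighbours differ by less than their spread. At the low end were MT-ND1 (104 ± 28.0), MT-ND5 (61.0 ± 15.5) and MT-ND6 (37.1 ± 11.2).

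As a check of the labels, RNMT itself had 55.5 to 112 CPM in Control libraries and 265 to 457 CPM in Induced libraries, with no overlap, and 54.8 to 121 CPM in the 6 parental libraries. The highest Control value was in replicate 5. Of 8 markers of the osteosarcoma line, 5 (VIM, COL1A1, SPARC, RUNX2 and FN1) had tags in all 16 libraries, and COL1A2 and TWIST1 were at 0 in 14 and 13 of them. ALPL was at 0 in 3 libraries and reached at most 1.20 CPM. Of 7 markers of other cell types, CD3E and ALB were at 0 throughout, PTPRC, PECAM1 and GFAP reached at most 0.7945 CPM, and the epithelial genes EPCAM and KRT8 had tags in all libraries, up to 14.3 and 114 CPM. Control replicate 5 and Induced replicate 2 lay nearest the opposite group for many genes, and the counts of called genes are given with and without each.

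The share of all gene counts that fell on the 37 genes was between 0.945% and 1.52% in Control libraries (1.23% ± 0.221, SD, n = 5). In Induced libraries it was between 0.854% and 1.36% (1.07% ± 0.204, SD, n = 5), and the groups overlapped. The mRNAs made up 0.849% ± 0.189 of gene counts in Control and 0.606% ± 0.131 in Induced libraries, again with overlap. The rRNAs made up 0.365% ± 0.0426 and 0.451% ± 0.126, and the tRNAs 0.0139% ± 0.0053 and 0.0116% ± 0.00591. The make-up of the mitochondrial tags was not a planned comparison and carries no test, but it differed more clearly than their sum. The mRNAs contributed 64.7% to 73.4% of them in Control libraries and 43.5% to 63.4% in Induced libraries, without overlap. The smallest mRNA contribution, 43.5%, was in Induced replicate 4, in which MT-RNR2 was highest. Wilson 95% intervals of these shares reached at most 0.0059 percentage points to either side for Control and Induced libraries and 0.0455 for the parental ones. They cover counting error only, taking each tag as independent, and not the spread between replicates. Duplicate tags, whose handling is not given, would make them too narrow.

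**Figure D1:**
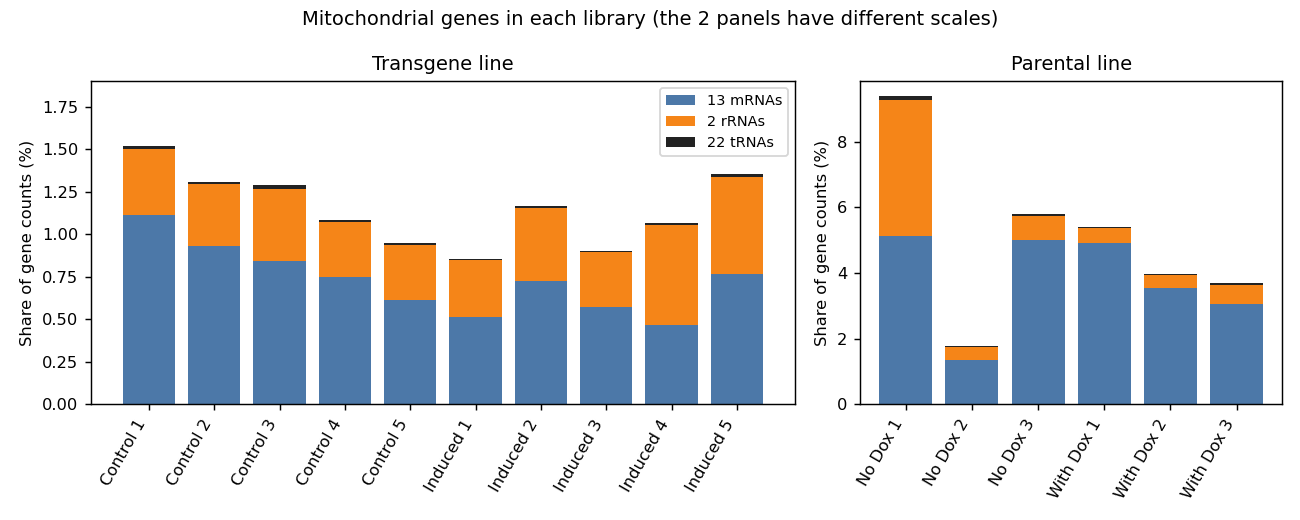
Share of all gene counts (%, from 0) on mitochondrial genes in each of the 16 libraries, stacked by class, with the transgene line on the left and the parental line on the right on its own scale. Control libraries lie between 0.945% and 1.52% and Induced libraries between 0.854% and 1.36%, and the parental libraries spread from 1.76% to 9.38%, with the large rRNA part in No Dox replicate 1.

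Single genes were then compared between Induced and Control libraries with edgeR's quasi-likelihood test. CPM carried TMM factors (trimmed mean of M values), and a gene was called where its P, adjusted by Benjamini and Hochberg's method, was under 0.05. The test took in 13038 genes, those with a mean normalised count over 20, of which 39.8% were called, 19.8% lower and 20.0% higher. Of the 37 mitochondrial genes 23 were tested, namely all 13 mRNAs, both rRNAs and 8 tRNAs, and 14 tRNAs were too low to test. Among those tested 8 were called lower, all of them mRNAs, and 1 was called higher, the tRNA MT-TS1. The share called in either direction, 39.1%, was close to that of all genes, whereas 34.8% were called lower and 61.5% of the mRNAs were. The log2 fold changes of the 23 genes ranged from -1.11 to 1.25 with a median of -0.59, against a median of 0.04 over all genes. Below 0 were 17 of the 23, against 47.9% of all genes. In bulk RNA, fewer mitochondria or genome copies per cell, less RNA per copy and less RNA kept in the supernatant cannot be told apart.

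None of the 23 genes separated the groups completely, where 4.22% of all genes were lower and 3.08% higher without overlap. For each of the 9 called genes Control replicate 5 was the uninduced library nearest the induced ones. Induced replicate 2 was the induced library nearest the uninduced ones for 7 of them and replicate 5 for the other two. Without Control replicate 5, 14 genes were called lower and 1 higher. Without Induced replicate 2, 9 were lower and 1 higher. Without Induced replicates 1, 3 or 4 in turn, 2, 4 or 3 genes were lower and 1, 0 or 0 higher. Without Control replicates 1, 2, 3 or 4 in turn, 4, 4, 6 or 6 were lower and 0, 0, 1 or 1 higher, and without Induced replicate 5, 9 were lower and 0 higher. Calls over all genes moved in the same way. They were 58.5% of the genes tested without Control replicate 5 and 48.8% without Induced replicate 2, where 65.2% and 43.5% of the mitochondrial genes were called, and 14.3% at the lowest, without Induced replicate 1, where 3 of 24 mitochondrial genes were. MT-ND4 and MT-ND5 were called lower in all 10 of these fits.

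**Figure D2:**
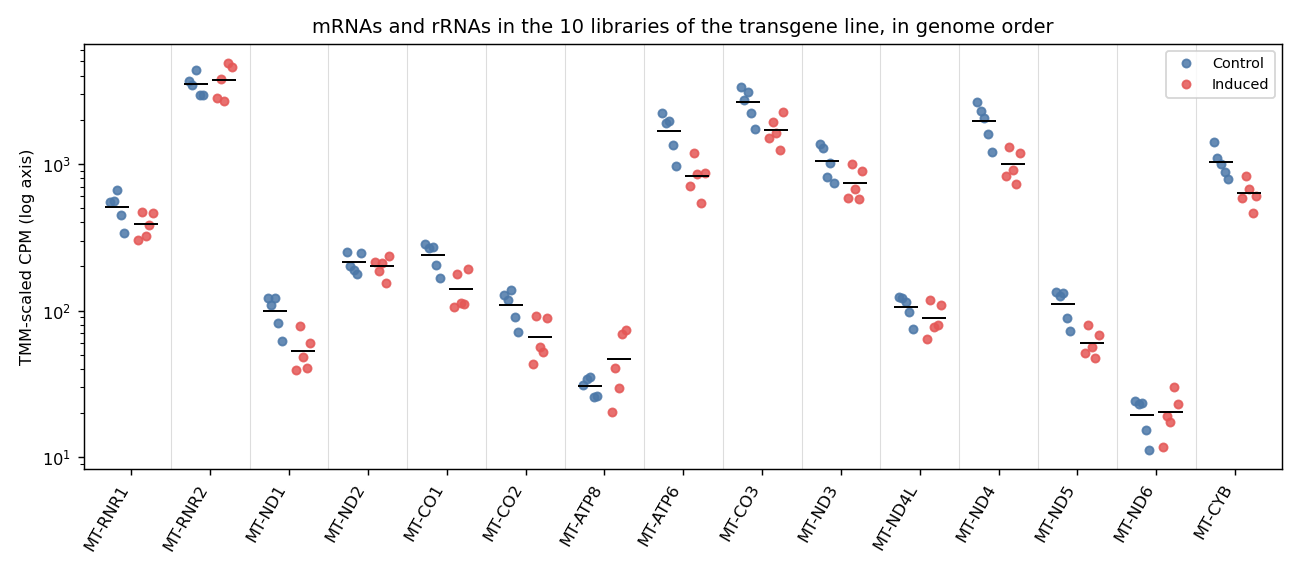
TMM-scaled CPM (log axis) of the 13 mRNAs and 2 rRNAs in the 5 Control and 5 Induced libraries, in the order of the genes on the genome, with one point per library and a bar at the group mean. Induced libraries lie lower for most mRNAs but overlap the Control libraries for every gene, and MT-RNR2, MT-ND2 and MT-ND6 show little difference in means.

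The complex I genes encode subunits of NADH dehydrogenase, the entry point of electrons from NADH. MT-ND1 (chrM:3307-4262) had 122, 109, 123, 81.6 and 61.6 CPM in Control replicates 1 to 5 and 39.4, 78.004, 48.4, 40.4 and 60.1 CPM in Induced replicates 1 to 5. Induced replicate 2 lay above Control replicate 5, and the other Induced libraries lay below all Control libraries. The log2 fold change was -0.90 ± 0.25 (SE, adjusted P = 0.0201, edgeR). MT-ND4 (chrM:10760-12137) had 2644, 2303, 2069.6, 1607 and 1195 CPM in Control libraries and 829.1, 1296, 911, 729 and 1187 CPM in Induced libraries. All Control values except that of replicate 5 were above all Induced values. The fall of 0.99 ± 0.24 on the log2 scale (adjusted P = 0.0177, edgeR) was among the largest.

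MT-ND5 (chrM:12337-14148) fell from 110.4 ± 28.0 to 60.4 ± 13.2 CPM (SD, n = 5 each), a log2 fold change of -0.87 ± 0.21 (adjusted P = 0.0177, edgeR). MT-ND3 (chrM:10059-10404) had 1366, 1284, 819.6, 1006 and 742 CPM in Control libraries and 585, 992, 672, 572 and 892 CPM in Induced libraries. The 2 groups shared the range from 742 to 992 CPM, and the log2 fold change of -0.49 ± 0.23 did not pass the test (adjusted P = 0.0972, edgeR). MT-ND2 and MT-ND4L did not pass it either, with log2 fold changes of -0.08 ± 0.16 and -0.25 ± 0.20.

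MT-ND6 (chrM:14149-14673) is the single mRNA of the reverse strand. It had 24.3, 23.2, 23.3, 15.4 and 11.2 CPM in Control libraries and 11.7, 19.1, 17.5, 30.3 and 22.9 CPM in Induced libraries. The groups covered much the same range, and the log2 fold change was 0.06 ± 0.28 (adjusted P = 0.862, edgeR). The adjoining gene on the forward strand, MT-ND5, was called lower. The MT-ND5 mRNA runs past its annotated end, opposite MT-ND6, and whether counting used strand is not given. What the counts on MT-ND6 stand for, and how many of them came from MT-ND5 mRNA, was not tested. Counts on MT-ND5 per count on MT-ND6 were 5.38 to 6.45 in Control libraries and 1.56 to 4.38 in Induced libraries, without overlap. This ratio was chosen after the values were seen and carries no test.

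MT-CYB (chrM:14747-15887) encodes cytochrome b, the mitochondrially encoded subunit of complex III. It had 1399.8, 1100.2, 1005, 884 and 790.0 CPM in Control libraries and 585, 833, 677, 465 and 608 CPM in Induced libraries. Of the Induced libraries replicate 2 alone reached the Control range. The log2 fold change was -0.71 ± 0.20 (adjusted P = 0.0221, edgeR).

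Complex IV, cytochrome c oxidase, takes its 3 core subunits from MT-CO1, MT-CO2 and MT-CO3. All 3 were called lower, MT-CO2 and MT-CO3 close to the threshold. MT-CO1 (chrM:5904-7445) had 283, 267, 272, 204 and 167 CPM in Control libraries and 106, 179, 113, 111 and 190.5 CPM in Induced libraries. Induced replicates 2 and 5 lay above Control replicate 5. The fitted log2 fold change was -0.77 ± 0.22 (adjusted P = 0.0238, edgeR). MT-CO3 (chrM:9207-9990) had 3363, 2715, 3096, 2239 and 1729.6 CPM in Control libraries and 1512, 1932, 1623, 1234 and 2266 CPM in Induced libraries. Induced replicates 2 and 5 again lay within the Control range. Here the log2 fold change was -0.62 ± 0.22 (adjusted P = 0.0452, edgeR), and MT-CO2 had -0.71 ± 0.25 (adjusted P = 0.0437, edgeR). Of 19 alternative settings, MT-CO1 lost the call in 7, MT-CO2 in 10 and MT-CO3 in 11, including total counts for all 3 and, for MT-CO2 and MT-CO3, the replicate number as a block (adjusted P = 0.0635 and 0.0724, edgeR).

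ATP synthase takes its a subunit from MT-ATP6 and the small subunit 8 from MT-ATP8, which share an mRNA. MT-ATP6 (chrM:8527-9207) had 2221, 1905, 1952, 1345 and 965 CPM in Control libraries and 707, 1191, 854, 538 and 865 CPM in Induced libraries. All Induced values except that of replicate 2 were below all Control values. The log2 fold change of -1.01 ± 0.26 (adjusted P = 0.0186, edgeR) was the largest fall among the mRNAs. MT-ATP8 (chrM:8366-8572) had 30.4 ± 4.39 CPM in Control and 46.8 ± 23.8 CPM in Induced libraries (SD, n = 5 each), a log2 fold change of 0.62 ± 0.32 that did not pass the test (adjusted P = 0.124, edgeR).

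Counts on the 2 genes of each shared mRNA therefore did not move alike. Counts on MT-ATP6 per count on MT-ATP8 were 71.9, 55.7, 55.8, 52.5 and 37.03 in Control libraries and 34.9, 29.2, 28.8, 7.76 and 11.7 in Induced libraries. Each Induced library was below each Control library. Counts on MT-ND4 per count on MT-ND4L were 21.3, 19.0, 18.2, 16.5 and 16.1 in Control libraries and 12.99, 11.04, 11.8, 9.18 and 10.9 in Induced libraries, also without overlap. These ratios were chosen after the values were seen and carry no test. Counts on MT-RNR2 per count on MT-RNR1 were 6.22 to 8.79 in Control and 8.07 to 12.7 in Induced libraries, with overlap. In both shared mRNAs the downstream gene, which precedes the poly(A) tail, held most tags and was called lower, while the upstream gene was not called. Tags next to the tail lie on the downstream gene, and what the counts on the upstream genes stand for was not tested.

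The rRNAs of the mitochondrial ribosome, 12S (MT-RNR1, chrM:648-1601) and 16S (MT-RNR2, chrM:1671-3229), were not called. MT-RNR1 had 552, 557, 665, 448 and 335 CPM in Control libraries and 302, 466, 321, 381 and 463 CPM in Induced libraries. Its log2 fold change of -0.40 ± 0.21 did not pass the test (adjusted P = 0.129, edgeR). MT-RNR2 had 3689, 3467, 4338, 2962 and 2949 CPM in Control libraries and 2830.0, 3764, 2698, 4848 and 4546 CPM in Induced libraries. Induced replicates 4 and 5 were above all Control libraries and replicates 1 and 3 below all of them. The log2 fold change was 0.10 ± 0.21 (adjusted P = 0.696, edgeR).

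Among the tRNAs, MT-TL1 (chrM:3230-3304), which follows the 16S rRNA gene and carries leucine, held the most counts. It had 82.0, 91.5, 161, 82.0 and 51.1 CPM in Control libraries and 38.2, 57.9, 33.2, 67.9 and 106 CPM in Induced libraries, with broad overlap. On the log2 scale the difference was -0.62 ± 0.35 (adjusted P = 0.16, edgeR). The tyrosine tRNA MT-TY (chrM:5826-5891), on the reverse strand, had 32.3, 32.7, 45.9, 17.6 and 4.98 CPM in Control libraries and 6.92, 13.3, 8.545, 15.04 and 17.7 CPM in Induced libraries. Control replicate 5 was below all Induced libraries, and the log2 fold change of -1.11 ± 0.47 did not pass the test (adjusted P = 0.0743, edgeR).

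The proline tRNA MT-TP (chrM:15956-16023) had 10.3, 10.2, 10.9, 6.95 and 3.29 CPM in Control libraries and 5.13, 6.52, 7.47, 13.3 and 17.7 CPM in Induced libraries. Induced replicates 4 and 5 were highest, and the log2 fold change was 0.27 ± 0.39 (adjusted P = 0.574, edgeR). MT-TF, MT-TV, MT-TM and MT-TS2 did not pass the test, with log2 fold changes of -0.59, -0.31, -0.73 and 0.27.

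MT-TS1 (chrM:7446-7514), a serine tRNA, was the single gene called higher. It rests on 27, 25, 10, 45 and 54 counts in Control libraries and 37, 46, 59, 110 and 87 counts in Induced libraries. In scaled form these were 1.37, 1.46, 0.5545, 2.17 and 2.34 CPM and 2.75, 2.16, 3.73, 5.06 and 5.15 CPM. Induced replicate 2 fell within the Control range. The log2 fold change was 1.25 ± 0.37 (adjusted P = 0.0242, edgeR). MT-TS1 lies on the reverse strand directly after the annotated end of MT-CO1, opposite the end of the MT-CO1 mRNA, and an identical nuclear copy exists. Without Control replicates 1 or 2 or Induced replicates 3, 4 or 5 in turn it was not called, while its log2 fold change stayed between 1.02 and 1.42 over the 10 such fits.

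**Figure D3:**
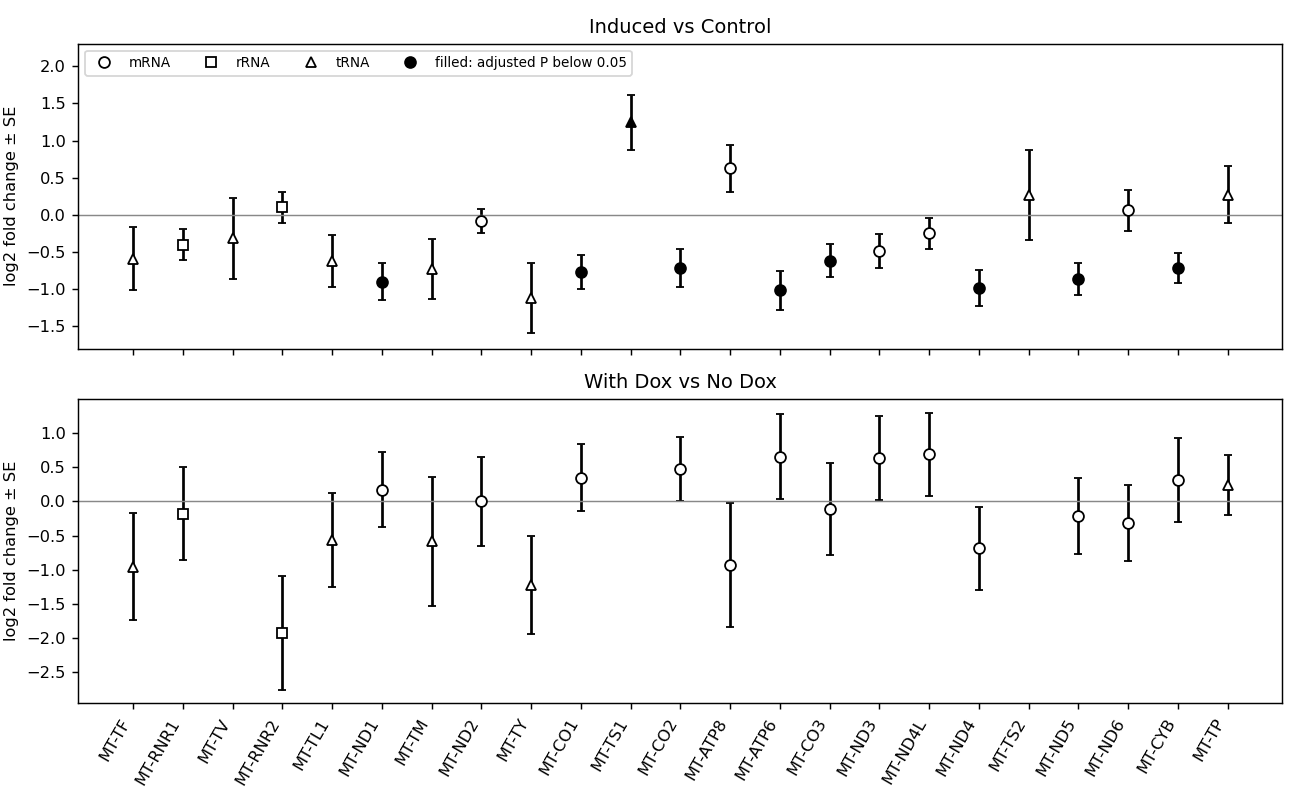
Log2 fold change ± SE from edgeR of the tested mitochondrial genes, in genome order, for Induced against Control (top) and With Dox against No Dox (bottom). Circles are mRNAs, squares rRNAs and triangles tRNAs, filled where the adjusted P is below 0.05. In the transgene line 8 mRNAs lie below 0 as called and MT-TS1 above it, and in the parental line no gene is filled and the errors are larger.

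The scaling and the base composition of the genes bear on these changes. With libraries scaled by total counts alone, all genes together had a median of 0.28 (log2) instead of 0.04, and 1404 of 5423 called genes were lower, against 2579 of 5183 with TMM factors. On that scale MT-ND1, MT-ATP6, MT-ND4 and MT-ND5 were called lower and MT-TS1 and MT-ATP8 higher, and MT-ND2 changed sign to 0.15. Changes are given here relative to the TMM scale. Over all genes tested, those with a GC content of at most 41.6% had a median log2 fold change of 0.42, and those of at least 55.9% had -0.46. The mitochondrial mRNAs have 39.6% to 47.7% GC. With offsets that remove the trend with GC content, all 9 called genes were called again and MT-ND3 joined them (-0.86 ± 0.27, adjusted P = 0.0412, edgeR). The called genes were then 43.5% of the 23, against 27.5% of all genes. The median of the 23 genes was -0.86, against -0.03 over all genes. Of the uncalled genes MT-RNR2, MT-ND6 and MT-TP moved to -0.19, -0.25 and -0.36.

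Signs of nuclear RNA in the cytoplasmic extracts were also measured. Of 4 nuclear-retained RNAs examined, MEG3 was at 0 in all 16 libraries and 3 were tested in the transgene line. NEAT1, a paraspeckle RNA, had 263 to 349 CPM in Control and 196 to 288 CPM in Induced libraries and was called lower (-0.44 ± 0.16, adjusted P = 0.041, edgeR). MALAT1, a speckle RNA, had 453 to 588 CPM in Control and 272 to 698 CPM in Induced libraries (0.03 ± 0.22, adjusted P = 0.927, edgeR). KCNQ1OT1 was at -0.27 (adjusted P = 0.534, edgeR). With offsets for GC content all 3 were below 0, NEAT1 at -0.69 and called, MALAT1 at -0.30 and KCNQ1OT1 at -0.52. The 4 RNAs summed to 736 to 929 CPM in Control and 490.4 to 895 CPM in Induced libraries. The part that carry-over of nuclei or mitochondria had in the changes was not tested. Of the 390 nuclear copies of mitochondrial genes listed by name in the counts, 56 had any count and 1 was high enough to test. This copy, MTATP6P1, was not called at a log2 fold change of -0.48, but was called lower with offsets for GC content (-0.73 ± 0.22, adjusted P = 0.0369, edgeR).

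Nuclear genes whose products handle mitochondrial RNA and DNA were examined as 5 lists, named from general knowledge and covering transcription, RNA processing, tails with stability and decay, tRNA and rRNA modification, and DNA replication. Of 60 genes, all of which were tested, 25 were called, or 41.7%, close to the 39.8% of all genes. Control replicate 5 lay nearest the induced group for 24 of these 25 and Induced replicate 2 nearest the uninduced group for 22 of them, and the groups overlapped for 22. With the offsets for GC content 13 of the 25 were called again, in a fit that called 27.5% of all genes.

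Of the 8 transcription genes 4 rose and 1 fell (62.5% called, against 39.8% of all genes), with a median log2 fold change of 0.43. TFB2M, a factor that opens mitochondrial promoters, rose most (2.58 ± 0.71, adjusted P = 0.0207, edgeR). Its Control libraries had 1.01, 0.642, 0.444, 1.21 and 5.02 CPM and its Induced libraries 14.1, 1.17, 11.96, 9.29 and 14.8 CPM. Induced replicate 2 lay among the uninduced libraries. MTERF3 (2.56) and the elongation factor TEFM (0.93) were the next largest rises, and the polymerase POLRMT fell (-0.52 ± 0.19, adjusted P = 0.0476, edgeR). With offsets for GC content 3 of the 5 calls were lost, with POLRMT at -0.02, TEFM at 0.44 and TFAM, the DNA-packaging factor, at 0.12 in place of 0.61. The 4 rises came down to between 1 and 4 when single replicates were left out, and the fall to between 0 and 1.

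Of the 14 RNA processing genes 2 rose and 2 fell (28.6% called, below the 39.8% of all genes), with a median of -0.25. FASTKD3 (2.34 ± 0.47, adjusted P = 0.0176, edgeR) and GRSF1 (1.25 ± 0.41, adjusted P = 0.0329, edgeR), an RNA granule protein, rose. HSD17B10, a subunit of the RNase P that cuts tRNA 5′ ends, fell (-0.84 ± 0.22, adjusted P = 0.0187, edgeR), and so did ELAC2, which cuts their 3′ ends (-0.71 ± 0.23, adjusted P = 0.0307, edgeR). Calls on ELAC2 and GRSF1 were lost with offsets for GC content, and FASTKD5 was called lower (-0.80 ± 0.28, adjusted P = 0.0499, edgeR). The median was then -0.40. When single replicates were left out, 1 to 3 of the 14 were called higher and 0 to 4 lower.

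Of the 8 genes for tails, stability and decay 5 rose and none fell (62.5% called, against 39.8% of all genes), with a median of 0.85, which was 0.36 with offsets for GC content. MTPAP, the poly(A) polymerase, had 5.42, 5.19, 4.99, 7.34 and 31.6 CPM in Control libraries and 49.2, 13.4, 41.1, 37.5 and 36.6 CPM in Induced libraries. Control replicate 5 lay above Induced replicate 2, and the other libraries separated by group. The rise on the log2 scale was 1.70 ± 0.55 (adjusted P = 0.0321, edgeR). SUPV3L1 (1.33) and PNPT1 (1.28), the helicase and nuclease of the mitochondrial RNA degradosome, were the next largest rises, followed by TRNT1 (1.17) and LRPPRC (0.41). LRPPRC turned to -0.03 and lost its call with offsets for GC content, and the other four kept theirs. Without single replicates between 3 and 6 of the 8 were called higher and none lower.

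Of the 19 modification genes 3 rose and 4 fell (36.8% called, near the 39.8% of all genes), with a median of -0.11. TRIT1 (1.86), ALKBH1 (1.63) and QTRT2 (1.38), which act on tRNA bases, rose. MRM3 (-0.83), a methyltransferase of the 16S rRNA, GTPBP3 (-0.72) and CDK5RAP1 (-0.58) were the largest falls, before TRMU. Of the 11 genes for replication and upkeep of the DNA 4 rose and none fell (36.4% called), with a median of 0.33. POLG2 (1.48), the accessory subunit of the DNA polymerase, RRM2B (1.27) and PRIMPOL (1.19) were the largest rises. With offsets for GC content ALKBH1, QTRT2 and CDK5RAP1 kept their calls in the former list, TRIT1, MRM3, GTPBP3 and TRMU lost theirs, NSUN4 was called lower (-0.59), and the median turned to 0.04. In the latter list POLG2 and RRM2B kept their calls and PRIMPOL and MGME1 lost theirs.

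**Figure D4:**
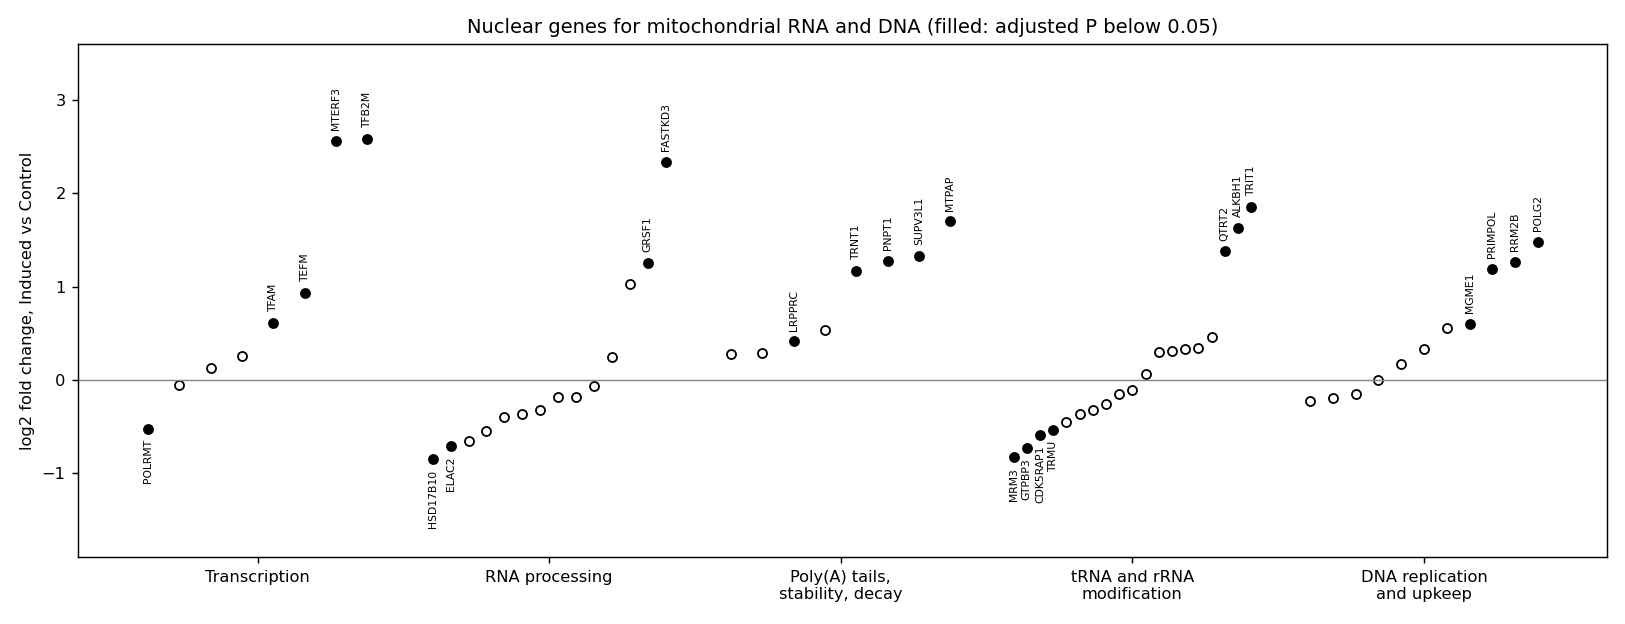
Log2 fold change of Induced against Control from edgeR for the nuclear genes of the 5 lists, sorted within each list, filled and named where the adjusted P is below 0.05. Of the 8 genes for tails, stability and decay 5 are filled and lie above 0, with a list median of 0.85, while the processing list has 2 filled genes on either side of 0.

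In the parental line the spread between libraries was larger. The share of gene counts on the 37 genes was 9.38%, 1.76% and 5.78% in No Dox replicates 1 to 3 and 5.39%, 3.96% and 3.68% in With Dox replicates 1 to 3. All With Dox libraries lay within the No Dox range. The difference in means, With Dox minus No Dox, was -1.30 percentage points and turned to 0.573 without No Dox replicate 1. The rRNAs alone took 4.17% of gene counts in No Dox replicate 1 and 0.382% to 0.752% in the other five libraries. For each gene count, 1.11 to 1.4972 tags fell outside annotated genes in these libraries against 0.0744 to 0.106 in the transgene libraries. Why the shares were higher than in the transgene line was not tested.

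Of 9124 genes tested between With Dox and No Dox libraries, edgeR called none (0%), and 4.66% were lower and 4.87% higher without overlap. All 13 mRNAs, both rRNAs and 5 tRNAs were tested. None of these 20 was called, none separated the groups, and MT-RNR2 alone had an unadjusted P below 0.05. Unadjusted P values below 0.05 were found for 267 genes in all, and DESeq2's Wald test called 1 gene, which was not mitochondrial. The log2 fold changes of the 20 genes ranged from -1.93 to 0.69, and 12 were below 0, against 50.8% of all genes. With standard errors of 0.44 to 0.95, changes of the size seen in the transgene line were not detectable here.

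**Figure D5:**
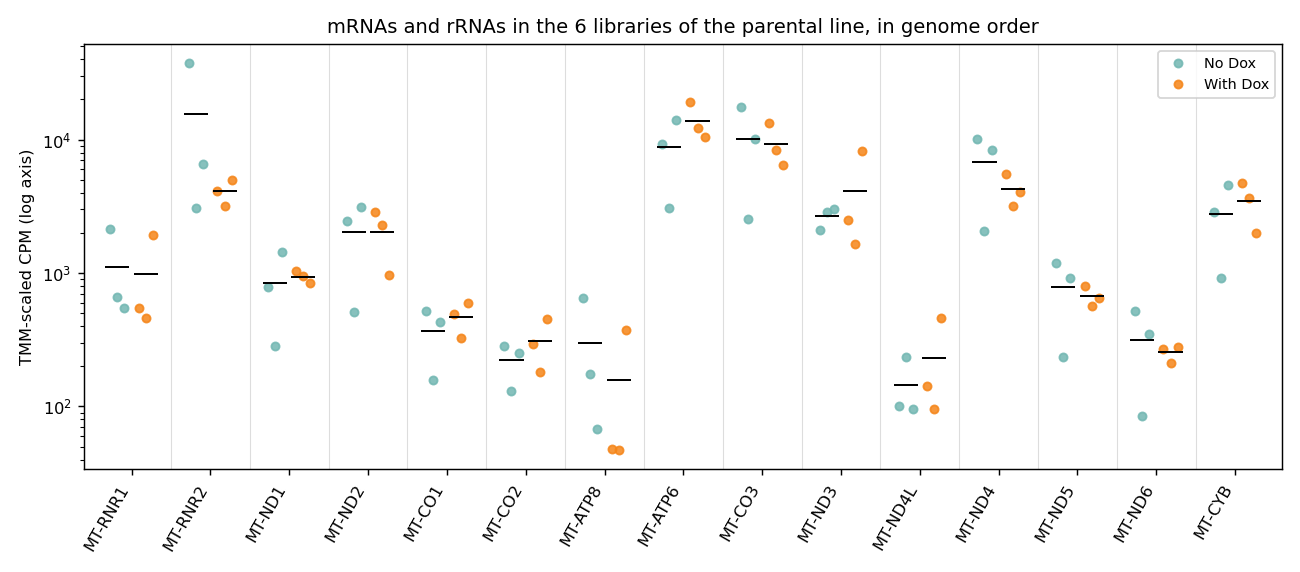
TMM-scaled CPM (log axis) of the 13 mRNAs and 2 rRNAs in the 3 No Dox and 3 With Dox libraries of the parental line, in genome order, with one point per library and a bar at the group mean. The 2 groups overlap for every gene, and the point of MT-RNR2 at 37305 CPM is No Dox replicate 1.

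MT-RNR2 had 37305, 3069.6 and 6509 CPM in No Dox libraries and 4144, 3179 and 5018 CPM in With Dox libraries. Replicate 1 stood above all others. The log2 fold change was -1.93 ± 0.83 (adjusted P = 0.997, edgeR). Without No Dox replicate 1 it was -0.14 (adjusted P = 0.9997, edgeR). MT-RNR1 had 2134, 657 and 549.8 CPM in No Dox and 545, 461 and 1940.2 CPM in With Dox libraries, with 1 high library in each group. Its fitted change was -0.18 ± 0.68 (log2). MALAT1 was also highest in No Dox replicate 1, with 1278, 303 and 597 CPM in No Dox and 126, 123 and 118 CPM in With Dox libraries (-2.57 ± 0.54, adjusted P = 0.997, edgeR). Its unadjusted P was 0.00058 (edgeR). Each No Dox value of MALAT1 was above each With Dox value, as for 4.66% of all genes tested. What part nuclear RNA had in the rRNA values was not tested.

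No Dox replicate 2 had the lowest level of the 6 libraries for 10 of the 13 mRNAs. MT-ATP6 had 9331, 3049 and 14101 CPM in No Dox and 19029, 12251 and 10396 CPM in With Dox libraries (0.65 ± 0.62, adjusted P = 0.997, edgeR). Its direction was opposite to that in the transgene line, within a wide error. MT-CO3 had 17521, 2539 and 10126 CPM in No Dox and 13221, 8333 and 6427 CPM in With Dox libraries (-0.11 ± 0.68). MT-CO1 had 521, 158 and 433 CPM in No Dox and 497, 327 and 591 CPM in With Dox libraries (0.35 ± 0.49). The groups overlapped for all 3.

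MT-ND1 had 786, 282 and 1439 CPM in No Dox and 1034, 950.2 and 836 CPM in With Dox libraries (0.17 ± 0.55). The With Dox values all lay inside the No Dox range. MT-ND4 had 10116, 2054 and 8337 CPM in No Dox and 5545, 3200.0 and 4014 CPM in With Dox libraries (-0.68 ± 0.61). MT-ND3 had 2104, 2881 and 3031 CPM in No Dox and 2508, 1636 and 8281 CPM in With Dox libraries (0.63 ± 0.61), with With Dox replicate 3 far above the rest. MT-CYB had 2851, 921 and 4555 CPM in No Dox and 4698, 3667 and 1980.0 CPM in With Dox libraries (0.31 ± 0.61), and MT-ND6 had 517, 84.4 and 350.1 CPM in No Dox and 272, 213 and 280.5 CPM in With Dox libraries (-0.31 ± 0.56). Neither separated the groups.

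Of the tRNAs, MT-TL1 had 205, 20.8 and 59.9 CPM in No Dox and 76.6, 36.5 and 80.2 CPM in With Dox libraries (-0.56 ± 0.69). MT-TY had 329.8, 22.6 and 171 CPM in No Dox and 104, 52.9 and 67.5 CPM in With Dox libraries (-1.22 ± 0.72). MT-TP had 147, 102 and 94.0 CPM in No Dox and 87.1, 104 and 215 CPM in With Dox libraries (0.24 ± 0.44). For MT-TL1 and MT-TY the No Dox libraries spanned the whole With Dox range. MT-TS1, with 25, 2 and 19 counts in No Dox and 27, 12 and 6 counts in With Dox libraries, was too low to test. None of the 48 genes of the 5 nuclear lists tested in this line was called, at medians between -0.09 and 0.18.

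Whether the lines responded differently was tested as an interaction in one edgeR fit of all 16 libraries, in which 2.98% of 12265 genes were called. Of 23 mitochondrial genes tested none was called, and 8 had an unadjusted P below 0.05. MT-ATP6 came closest, with a difference of -1.896 ± 0.604 between its log2 fold changes in the transgene and parental lines (adjusted P = 0.0772, edgeR). MT-CO2 (-1.43 ± 0.52) and MT-CO1 (-1.35 ± 0.51) had adjusted P values of 0.104 and 0.115 (edgeR). DESeq2's Wald test called MT-ATP6 (adjusted P = 0.0265) and no other mitochondrial gene. Without Control replicate 5, edgeR called MT-ATP6, MT-CO1 and MT-CO2. Without Induced replicate 2 or No Dox replicate 3 it called MT-ATP6, and without With Dox replicate 2 it called MT-CO2. Without any other single library it called no mitochondrial gene. Of all genes tested, 18.9% were called without Control replicate 5 and 9.64% without Induced replicate 2. The share was 5.56% without No Dox replicate 3, 13.3% without With Dox replicate 2 and 12.1% with DESeq2's Wald test. In each of these fits a smaller share of the mitochondrial genes tested was called. The fall of mitochondrial mRNAs with ΔN-RNMT is thus not shown by edgeR to differ from the response of the parental line to doxycycline, nor shown to be the same.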

How the data were processed

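The members and gene lists were chosen with earlier results of these data known. The authors deposited unnormalized counts of sequence tags per Ensembl gene, made one library at a time with the Lexogen QuantSeq REV pipeline 2.2.3 for GRCh38, together with 92 spike-in entries that are all at 0 and 5 summary entries, both left out here. Which aligner and annotation release were used, and whether strand or duplicates were considered, is not given in the sources used here, and no column was left out. Per the study's text, the transgene libraries came from biological replicates and the parental ones from separate cultures. No library pair differed by less than sampling noise (lowest chi-square per degree of freedom 4.55).

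Counts of genes with a base mean above 20 were fitted in R 4.3.3 with edgeR 4.0.16 (TMM, quasi-likelihood test, Benjamini-Hochberg adjustment over all genes tested, threshold 0.05), after tests on simulated data. The SE is the log2 fold change over the root of its F statistic. CPM are TMM-scaled within a line, so levels are not compared between lines. Alternatives were DESeq2 1.42.0 (Wald test, size factors), total counts alone, nuclear genes alone for scaling, 2 other filters, the replicate number as a block, 1 surrogate variable (sva 3.50.0), each replicate left out and, added after seeing the data, offsets for GC content (lowess span 0.5 on the longest GENCODE transcript). Nuclear copies were searched with blastn 2.17.0+. Values per library are given for MT-CO1, MT-ND1, MT-ND6, both rRNAs, the 5 mRNAs and 3 tRNAs with the most counts, and members called against the main direction; of each list the 3 largest called changes each way are named. RN7SK was not matched by name.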

Additional observations from a re-analysis of the deposited data

Results flagged for a closer look

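The valine tRNA MT-TV had 10.8 CPM in Induced replicate 5, against 0.967 to 3.03 CPM in the other four Induced libraries, a gap of 0.791 of the group's range, past Dixon's 95% criterion for 5 values. Such a gap was looked for in 54 groups of 5 values and chance gives about 1 in 20, so a single one is no more than chance would give. Of the 10 libraries of the transgene line it also had the most tags aligned to more than 1 place, 1.33 per gene count.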

How the results depend on the processing

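Of the 9 mitochondrial genes called between Induced and Control libraries, MT-ND4 and MT-ND5 lost the call only with 1 surrogate variable, among 19 alternatives, and none of the 9 changed direction in any of them. Scaled by total counts alone, 4 genes were called lower and 2 higher; without a filter on low counts 2 were higher; with 1 surrogate variable 0 were called either way, and 1 gene in all. Leaving out single replicates gave 2 to 14 lower and 0 to 1 higher, among 1869 to 7604 genes called in all. Replicate numbers did not pair the samples (correlations of deviations -0.373 to 0.625 in the transgene line and -0.42 to 0.237 in the parental line), and with the replicate number as a block 6 genes were lower and 1 higher. For the difference between the lines DESeq2's Wald test called 1 mitochondrial gene, and leaving out single libraries 0 to 3. Genes called in all for that difference numbered 365 with edgeR, 1489 with DESeq2 and 0 to 2291 without single libraries. The difference between groups in the share of gene counts moved by less than the spread between replicates with the mRNAs alone, without the rRNAs, per count on nuclear genes or without single replicates, but in the parental line, where it was -1.30 percentage points, it was 0.0147 with the mRNAs alone.

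Log2 fold changes of uncalled genes changed sign as follows, and the cause was not tested. Between Induced and Control libraries, 1 surrogate variable gave MT-TF 0.51, MT-RNR1 0.0414, MT-TV 0.30, MT-TL1 0.10, MT-TM 0.34, MT-TY 0.30 and MT-ND4L 0.0783. Total counts gave MT-ND2 0.15, and offsets for GC content gave MT-RNR2 -0.19, MT-ND6 -0.25 and MT-TP -0.36. Leaving out single replicates gave ranges of -0.0063 to 0.20 for MT-RNR2, -0.15 to 0.0009 for MT-ND2, -0.34 to 0.65 for MT-TS2, -0.12 to 0.21 for MT-ND6 and -0.0263 to 0.44 for MT-TP. Between With Dox and No Dox libraries, 1 surrogate variable gave MT-RNR1 0.18, MT-TL1 0.0538, MT-TM 0.20 and MT-CO3 0.062. The replicate block gave MT-TM 0.20, MT-ND2 0.22, MT-CO3 0.18, MT-ND5 0.0499 and MT-ND6 0.006. MT-ND2 was 0.0207 with DESeq2 size factors and with its Wald test, 0.0165 with filterByExpr and 0.0679 without a filter. Leaving out single replicates there gave -1.38 to 0.56 for MT-TF, -1.20 to 0.80 for MT-RNR1, -0.97 to 0.73 for MT-TL1, -0.17 to 0.88 for MT-ND1, -1.52 to 1.36 for MT-TM, -0.40 to 0.50 for MT-ND2 and -2.69 to 0.46 for MT-ATP8. It gave -0.51 to 0.62 for MT-CO3, -0.41 to 1.09 for MT-ND3, -0.32 to 1.33 for MT-ND4L, -0.58 to 0.31 for MT-ND5, -0.69 to 0.31 for MT-ND6, -0.038 to 0.92 for MT-CYB and -0.30 to 0.55 for MT-TP. At the parental depth 17 tRNAs were too low to test.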
